A study of Mus musculus with 8 samples.

Results

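The 10 genes described here encode the NF-κB subunits (Nfkb1, Nfkb2, Rel, Rela and Relb) and 5 regulators of the pathway. The regulators (Nfkbia, Nfkbie, Nfkbiz, Bcl3 and Tnfaip3) are themselves NF-κB targets and are called feedback inhibitors below. The products of Nfkbiz and Bcl3 can also activate target genes. The 10 genes were taken by gene symbol, as a set proposed with earlier results of these data known. They came from 23998 gene rows in 2 tables of mRNA levels, of which 20432 rows are in both tables. All 10 were present in both tables and passed the filter on low values, with between 257 and 11040 reads in a sample. The cells were MC38, a line from a mouse colon adenocarcinoma, with 2 samples in each of 4 groups. Control cells, labelled wild type, and DENR KO cells, in which the translation reinitiation factor DENR was knocked out with Cas9 and sgRNAs, were each either left untreated or given IFNγ at 20 ng/ml for 4 h. The labels number the 2 samples of a group without saying whether they are separate cultures or, for DENR KO, different sgRNAs. The p-values below therefore measure only spread between samples, which may be technical. The tests estimate the spread of each gene partly from that of the other genes tested. These are bulk samples, in which fewer cells expressing a gene and less RNA per cell cannot be told apart.

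NF-κB transcription factors are dimers of subunits that share a DNA-binding Rel homology domain. In resting cells, inhibitor proteins of the IκB family hold most dimers in the cytoplasm. When upstream kinases mark an IκB for degradation, the dimers enter the nucleus and bind κB sites in the promoters of inflammatory genes, several of which encode inhibitors that then switch the signal off. IFNγ signals mainly through JAK kinases, and IFNγ and NF-κB signaling are known to act together on many inflammatory promoters.

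RefSeq promoter sequences (GRCm38.p6), from 250 bases before to 50 bases after an annotated start site, were at hand for 7 of the 10 genes, in 10 windows. Nfkb1, Relb and Nfkbiz had no entry. A match to the κB consensus, searched on both strands, was found in 6 of the 7 genes (Nfkb2, Rel, Nfkbia, Nfkbie, Bcl3 and Tnfaip3) and not in the windows of Rela, against 9.55% of the 27025 genes in the promoter table. The gamma-activated site TTCNNNGAA, an element known from IFNγ-responsive promoters, was matched in 1 gene (Nfkb2), against 9.55% of all genes, and the interferon-stimulated response element GAAANNGAAA in 0 of the 7 genes, against 3.99% of all genes. A match is a run of letters and was not tested for binding. The sequences below show which stretch of each promoter carries the κB letters, as these are the genes whose levels are compared in the rest of the text. Each line gives the match nearest to the start site in the window nearest the 5′ end of the gene, along the strand of the gene from 5′ to 3′, with the κB match in capitals and the position of its first base counted from 0 at the annotated start base. In the last line the capitals mark the gamma-activated site of Nfkb2.
Nfkb2, chr19:46304716-46304745, plus strand, position -11: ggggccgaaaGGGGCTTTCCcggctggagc
Rel, chr11:23771041-23771070, minus strand, position -91: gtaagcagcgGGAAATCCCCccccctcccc
Nfkbia, chr12:55492657-55492686, minus strand, position -29: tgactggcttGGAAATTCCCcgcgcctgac
Nfkbie, chr17:45555584-45555613, plus strand, position -106: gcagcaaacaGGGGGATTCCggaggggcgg
Bcl3, chr7:19822734-19822763, minus strand, position 2: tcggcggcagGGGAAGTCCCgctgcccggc
Tnfaip3, chr10:19015403-19015432, minus strand, position -12: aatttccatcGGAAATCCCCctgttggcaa
Nfkb2 gamma-activated site, chr19:46304579-46304607, plus strand, position -148: tgggcgagccTTCCCCGAAaggggcgcgc
The κB letters stood in 2 of the 3 subunit genes and in all 4 inhibitor genes with a window.

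DENR is known for reinitiation after very short upstream reading frames, the shortest of which is an ATG directly followed by a stop codon. Such a start-stop element lay in an annotated 5′ UTR of 2 of the 10 genes. It was in 3 of the 4 coding transcripts of Nfkbiz and in 2 of the 4 of Tnfaip3. Of the 14782 coding genes of the tables with an annotated 5′ UTR, 11.9% had one. mRNA levels do not measure the translation of any of these genes.

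The libraries were alike in depth, with 17369020 to 18403790 reads on genes per sample and 4.10% to 4.45% of the reads in the 10 most abundant genes. Denr itself had 1438 and 1401 normalized counts (reads divided by the size factor of the sample) in control cells with IFNγ and 945.7 and 957.2 in DENR KO cells, and it fell in the KO cells both with IFNγ (67.0% of control, adjusted p = 8.17e-06) and untreated (67.7%, adjusted p = 1.10e-04, limma with Benjamini-Hochberg adjustment). The transcript was therefore lower and not absent in the samples labelled DENR KO, which does not measure DENR protein. The exons of Denr overlap those of Gm43518 on the same strand. The epithelial origin of the line was hardly visible in these levels, as 5 epithelial markers (highest Cdh1) summed to 11.1 to 27.5 normalized counts, whereas Vim, a mesenchymal filament gene, had 62697 to 74880. The 3 leukocyte markers analysed (Ptprc, Itgam and Csf1r) summed to 1.02 to 6.12 normalized counts and the 4 endothelial markers to 19.5 to 31.2. The tables hold no row with 0 in all of its samples, and Epcam, Cd3e and Adgre1 were not analysed here. With IFNγ, 1 of the 6 mesenchymal markers, Pdgfrb, rose in DENR KO cells (log2 fold change 0.43, adjusted p = 0.00845), and the summed mesenchymal level was 76527 to 79285 in control and 75740 to 76939 in DENR KO cells; whether this has a part in the results below was not tested.

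With IFNγ, all 5 feedback inhibitors were lower in DENR KO than in control cells past the test, and none of the 5 subunits was, where 2.25% of all genes tested were lower. Whether the roles differ in their change was not tested. Fewer of the 10 genes passed whichever sample was left out, and the split by role was not kept in every such fit. Without DENR KO IFNγ replicate 2, the log2 fold change was -0.45 for Rel, a subunit gene, against -0.30 for Bcl3 and -0.22 for Nfkbie. With all samples, the mRNA levels of the inhibitors in KO cells with IFNγ were 69.0% (Nfkbiz) to 84.6% (Nfkbia) of control, and that of Rel was 79.3%. Without IFNγ, no gene of either role passed the test, where 0.579% of all genes did. The levels in each sample are plotted by group, with a panel for each gene.

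**Figure D1:**
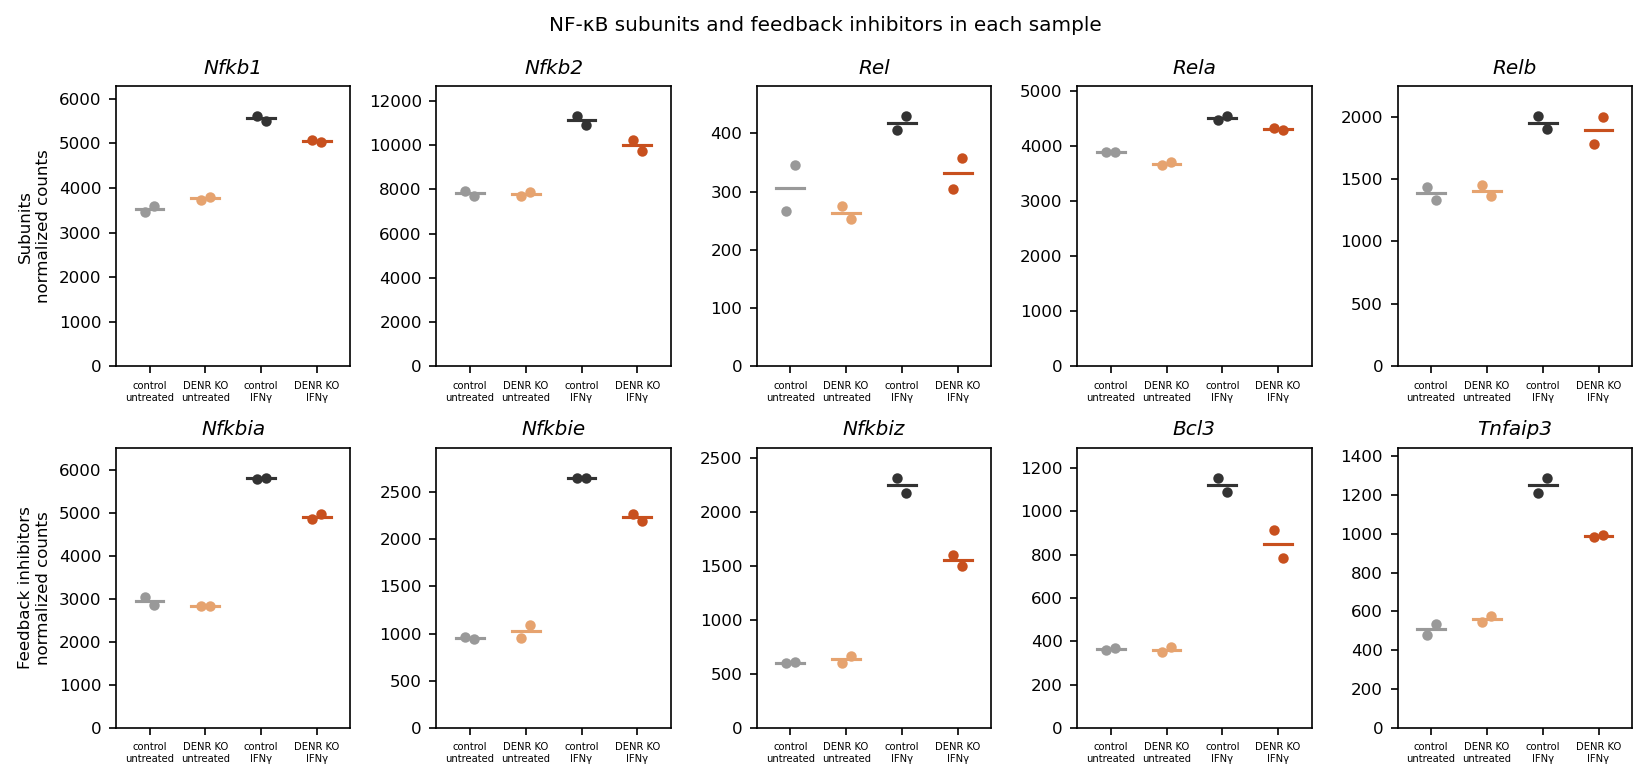
Normalized counts (linear axis from 0) of the 5 subunits (upper row) and the 5 feedback inhibitors (lower row) in each sample (points) and their group means (horizontal lines), by genotype and treatment. All 10 genes are higher with IFNγ than untreated in both genotypes, and with IFNγ both DENR KO samples are below both controls for the 5 inhibitors and for 4 of the 5 subunits (all but Relb), as for 20.8% of all genes.

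Nfkbiz encodes IκBζ, an atypical nuclear IκB protein that NF-κB signaling induces and that also co-activates a set of secondary response genes. It lies on the minus strand at chr16:55811375-55838899 (GRCm38). With IFNγ it had 2322 and 2180 normalized counts in control cells and 1607 and 1499 in DENR KO cells. Both KO samples were below both controls, by more than the gap within either group. The log2 fold change of KO over control was -0.54 (SE 0.067, 95% confidence interval -0.67 to -0.40, adjusted p = 9.53e-06, limma), rank 81 of 13928 genes by p. Untreated, the control samples had 599.6 and 609.3 and the KO samples 604.3 and 666.2 normalized counts. These ranges overlapped, and the log2 fold change was 0.07 (95% confidence interval -0.12 to 0.26, adjusted p = 0.867, limma). The effect of DENR KO differed between the treatments by -0.61 on the log2 scale (SE 0.106, adjusted p = 0.00428, limma interaction test over the 8 samples). The call on this difference was kept with 7 of the 8 samples left out in turn, and it was lost without DENR KO untreated replicate 2 (-0.53, adjusted p = 0.0641).

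Bcl3 encodes another nuclear IκB protein, which binds homodimers of the subunits made from Nfkb1 and Nfkb2 and can repress or activate their targets. It lies on the minus strand at chr7:19808462-19822770, and its exons overlap those of Gm16175 on the opposite strand, so without stranded counting reads of the pair could not be told apart. With IFNγ it had 1156 and 1090 normalized counts in control cells and 912.3 and 784.3 in KO cells. The groups did not overlap, and the 2 KO samples were farther apart than the 2 controls. The log2 fold change was -0.41 (SE 0.083, adjusted p = 0.00347, limma), or 75.5% of control. Without DENR KO IFNγ replicate 2, the lower of the KO samples, it was -0.30 and no longer passed (adjusted p = 0.0720, limma). Untreated, Bcl3 had 358.2 and 368.4 normalized counts in control cells and 350.2 and 372.4 in KO cells. The 4 values were within the same range, with a log2 fold change of -0.01 (95% confidence interval -0.23 to 0.21).

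Tnfaip3 encodes a ubiquitin-editing enzyme that takes apart the signaling complexes of TNF and Toll-like receptors. It lies on the minus strand at chr10:19000910-19015657. With IFNγ it had 1208 and 1290 normalized counts in control cells and 981.1 and 996.2 in KO cells. Both KO samples were below both controls, and the log2 fold change was -0.34 (SE 0.073, adjusted p = 0.00667, limma). Without control IFNγ replicate 2, the higher of the controls, it was -0.29 and missed the threshold (adjusted p = 0.0672, limma). Untreated, Tnfaip3 had 478.9 and 537.8 normalized counts in control cells and 543.5 and 578.8 in KO cells. Here both KO samples were above both controls, by a log2 fold change of 0.14 that did not pass the test (95% confidence interval -0.05 to 0.34, adjusted p = 0.686, limma). The difference between the treatments was -0.48 (SE 0.117, adjusted p = 0.0830, limma), and of the fits with a sample left out it passed in the 1 without control untreated replicate 2 (-0.56, adjusted p = 0.0207).

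Nfkbie and Nfkbia encode IκBε and IκBα, cytoplasmic inhibitors that bind NF-κB dimers and are resynthesized after NF-κB activation. Nfkbie, on the plus strand at chr17:45555716-45563169, had 2644 and 2653 normalized counts in control cells with IFNγ and 2271 and 2195 in KO cells. The groups were well apart, and the log2 fold change was -0.25 (SE 0.061, adjusted p = 0.0192, limma), or 84.3% of control. Of the 5 inhibitor calls it was the 1 that was lost when any of the 4 samples was left out (control replicate 1, adjusted p = 0.0621; control replicate 2, 0.0895; DENR KO replicate 1, 0.0502; DENR KO replicate 2, 0.154; limma), with log2 fold changes of -0.27 to -0.22, and in a fit of both tables together (adjusted p = 0.0544, limma). Nfkbia, on the minus strand at chr12:55489410-55492647, had 5786 and 5820 normalized counts in control cells with IFNγ and 4861 and 4962 in KO cells. Its groups did not overlap, and the log2 fold change was -0.24 (SE 0.054, adjusted p = 0.00877, limma), or 84.6% of control. It missed the threshold without control IFNγ replicate 2 (-0.24, adjusted p = 0.0514) and without DENR KO IFNγ replicate 1 (-0.23, adjusted p = 0.0967, limma). Untreated, Nfkbia had 3044 and 2846 normalized counts in control cells and 2845 and 2846 in KO cells. Nfkbie had 965.9 and 943.0 in untreated control cells and 956.5 and 1095 in untreated KO cells. Neither gene passed the test untreated, with log2 fold changes of -0.05 (95% confidence interval -0.18 to 0.08) for Nfkbia and 0.10 (-0.07 to 0.27) for Nfkbie.

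None of the subunit genes passed the test with IFNγ. Nfkb1, which encodes a precursor processed into a DNA-binding subunit that lacks a transactivation domain, lies on the minus strand at chr3:135584655-135691547. It had 5611 and 5502 normalized counts in control cells with IFNγ and 5072 and 5027 in KO cells. Both KO samples were lower, with a log2 fold change of -0.14 (95% confidence interval -0.25 to -0.03, adjusted p = 0.221, limma). Untreated, the order was the opposite, with 3466 and 3585 in control cells and 3730 and 3800 in KO cells (0.09, adjusted p = 0.659, limma). The difference between the treatments, -0.23, did not pass either (95% confidence interval -0.39 to -0.08, adjusted p = 0.387, limma).

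Nfkb2, on the plus strand at chr19:46304737-46312090, encodes the precursor that is processed in the noncanonical branch of the pathway. Its exons overlap those of AC114539.1 and Psd on the opposite strand. It had 11312 and 10910 normalized counts in control cells with IFNγ and 10248 and 9715 in KO cells. The groups did not overlap, with a log2 fold change of -0.15 (95% confidence interval -0.26 to -0.05, adjusted p = 0.112, limma). Untreated it had 7938 and 7706 in control cells and 7721 and 7885 in KO cells, which overlapped. Relb, on the minus strand at chr7:19606217-19629438, encodes the usual partner of the Nfkb2 product. It had 2004 and 1899 normalized counts in control cells with IFNγ and 1782 and 1998 in KO cells. It was the only gene of the 10 whose groups overlapped with IFNγ, with a log2 fold change of -0.05 (95% confidence interval -0.19 to 0.10, adjusted p = 0.852, limma). Untreated, Relb had 1439 and 1330 in control cells and 1450 and 1361 in KO cells, which overlapped as well.

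Rela, on the plus strand at chr19:5637483-5648130, and Rel, on the minus strand at chr11:23736847-23770970, encode subunits that carry transactivation domains, and c-Rel, the product of Rel, is most abundant in lymphocytes. Rela had 4481 and 4550 normalized counts in control cells with IFNγ and 4329 and 4302 in KO cells. Untreated, it had 3903 and 3888 in control cells and 3657 and 3716 in KO cells. KO was below control in both treatments by a similar and small amount, with log2 fold changes of -0.07 (95% confidence interval -0.18 to 0.05) and -0.08 (-0.20 to 0.04) that did not pass the test (adjusted p = 0.707 and 0.730, limma). Rel had the fewest reads of the 10 genes, with 405.8 and 429.9 normalized counts in control cells with IFNγ and 305.1 and 357.5 in KO cells. Both KO samples were lower, with a log2 fold change of -0.34 (SE 0.109, 95% confidence interval -0.56 to -0.11), as large as that of Tnfaip3 but with a wider spread (adjusted p = 0.0959, limma). When single samples were left out, Rel passed the test without DENR KO IFNγ replicate 2 (-0.45, adjusted p = 0.0369, limma). Untreated, Rel had 266.6 and 346.0 in control cells and 275.7 and 252.5 in KO cells. These ranges overlapped, and the difference between the treatments was -0.14 (95% confidence interval -0.50 to 0.23).

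Counted over the 10 genes, 5 fell in DENR KO cells with IFNγ at an adjusted p under 0.05 and 0 rose, where 2.25% of the 13928 genes tested fell and 1.80% rose. The counts were 5 of 5 inhibitors and 0 of 5 subunits by limma, edgeR and DESeq2 alike. Of the subunits, 3 (Nfkb1, Nfkb2 and Rel) had an unadjusted p under 0.05 in limma, as did 13.4% of all genes. Both KO samples were below both controls for 9 of the 10 genes, against 20.8% of all genes, and the log2 fold change was negative for 10 of 10, against 50.1%. The median log2 fold change was -0.34 for the inhibitors and -0.14 for the subunits, while that of all genes was -3.6e-04. The count over the 10 genes was 2 (Nfkbiz and Bcl3) without control replicate 2 and 3 (Nfkbiz, Bcl3 and Tnfaip3) without DENR KO replicate 1.

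Untreated, 0 of the 10 genes passed by limma, by edgeR or by DESeq2, and 0 had an unadjusted p under 0.05 in limma, where 0.579% of 13998 genes passed and 9.25% had such an unadjusted p. KO was below control without overlap for Rela and Nfkbia and above it for Nfkb1 and Tnfaip3, where 19.6% of all genes were below and 20.4% above. For Nfkbia the nearest samples all but touched, at 2845.7 normalized counts in KO and 2846.3 in control cells. The medians were 0.07 for the inhibitors and -0.0035 for the subunits. The effects in both treatments are plotted side by side with their intervals.

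**Figure D2:**
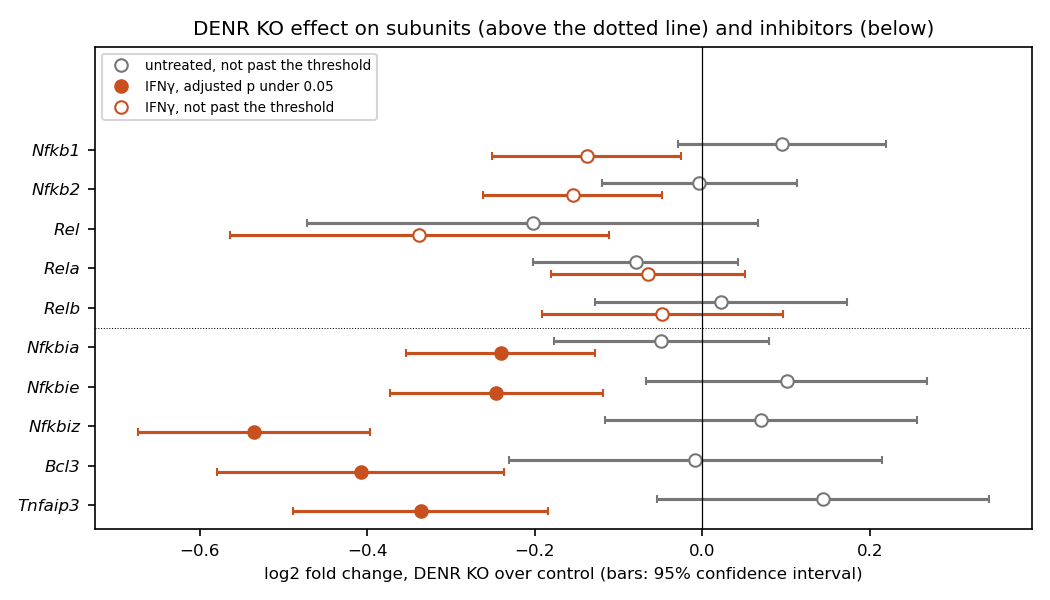
Log2 fold change between genotypes, KO over control (x axis), with 95% confidence intervals from limma, untreated (grey) and with IFNγ (orange), for the 5 subunits and the 5 inhibitors; filled points have an adjusted p under 0.05. The 5 filled points are the inhibitors with IFNγ, from -0.24 (Nfkbia) to -0.54 (Nfkbiz), and every untreated interval includes 0.

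How far the KO effect differed between the treatments, which does not depend on the scale of either table, was negative for 9 of the 10 genes, all but Rela (0.01), and negative for 49.7% of all genes. It passed the test for 1 gene, Nfkbiz, where 0.429% of 13998 genes passed in that direction (60 genes, but 35 without control IFNγ replicate 2 and 37 without DENR KO untreated replicate 1). At an unadjusted p under 0.05 in limma, 7 genes had a difference (Nfkb1, Nfkb2 and all 5 inhibitors), where 5.74% of all genes did. Nfkb2 was at the edge of this threshold (unadjusted p = 0.04998, limma), above it by edgeR (0.0599) and below it by DESeq2 (0.0339). After Nfkbiz, the values were -0.48 for Tnfaip3, -0.40 for Bcl3 (adjusted p = 0.366), -0.35 for Nfkbie (adjusted p = 0.229) and -0.19 for Nfkbia (adjusted p = 0.690, limma).

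The levels with IFNγ and without can be set side by side only as a description, because the 2 tables were normalized separately and the ratios of all genes have a median of 0.944 in control cells and 0.946 in DENR KO cells. No test was run on these ratios. All 10 genes were higher in both IFNγ samples than in both untreated samples of the same genotype, which held for 16.6% of all genes in control and 15.6% in KO cells. In control cells the ratio of mean levels was highest for Nfkbiz (3.72), followed by Bcl3 (3.09), Nfkbie (2.77), Tnfaip3 (2.46) and Nfkbia (1.97), all inhibitors. The subunits followed, from 1.58 (Nfkb1) over 1.42 (Nfkb2), 1.41 (Relb) and 1.36 (Rel) down to 1.16 (Rela). In DENR KO cells the ratio was 2.44 for Nfkbiz, 2.35 for Bcl3, 2.18 for Nfkbie, 1.76 for Tnfaip3 and 1.73 for Nfkbia, and 1.17 (Rela) to 1.34 (Relb and Nfkb1) for the subunits. Nfkbiz, Bcl3 and Nfkbie led the order in both genotypes.

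The ratio was lower in KO than in control cells for 9 of the 10 genes, and for 49.5% of all genes. Written as the difference in normalized counts between IFNγ and untreated, KO cells had 55.8% of the control difference for Nfkbiz, 57.7% for Tnfaip3, 64.1% for Bcl3, 71.3% for Nfkbie and 72.3% for Nfkbia. Among the subunits, this share was 63.3% for Nfkb1, 66.3% for Nfkb2, 85.5% for Relb and 101% for Rela. For Rel it was 60.2%, but between 36.7% and 93.5% with a sample left out, too wide to place it in this order. With a sample left out, the shares of Relb (66.4% to 104.5%), Nfkb2 (58.2% to 74.4%) and Bcl3 (55.7% to 72.5%) also reached those of other genes. The order of these shares is therefore only partly resolved. The share of Nfkb1 and Nfkb2 lay within the range of the inhibitors, and their smaller fold change between genotypes went with a smaller ratio to the untreated level. This did not hold for Rel, with a ratio of 1.36 in control cells and a log2 fold change of -0.34 between genotypes with IFNγ. The relation was not tested.

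**Figure D3:**
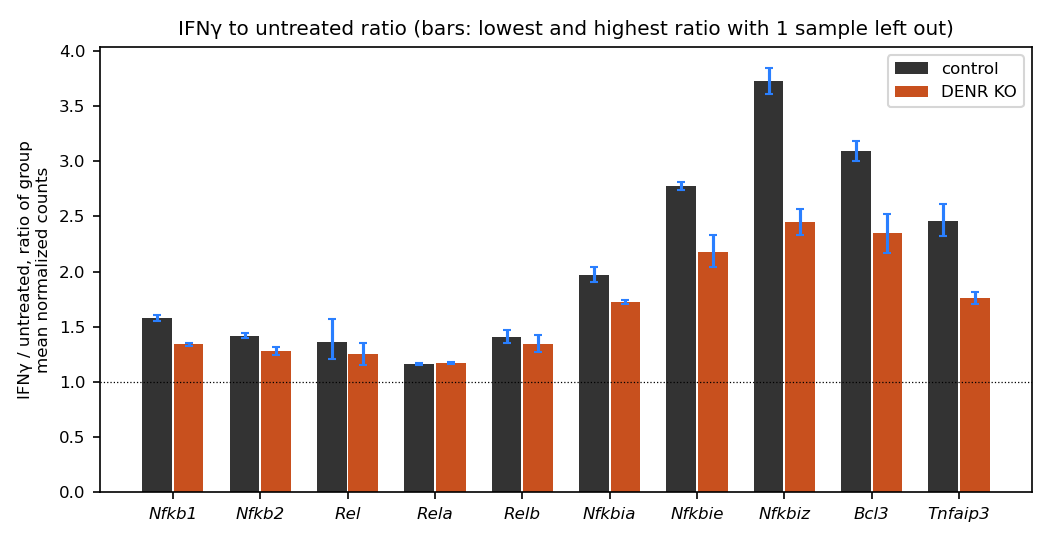
Ratio of the mean normalized count with IFNγ to the mean untreated (y axis, from 0) for control (black) and DENR KO (orange) cells; blue bars run from the lowest to the highest ratio when a sample is left out. The inhibitors on the right reach 1.97 to 3.72 in control and 1.73 to 2.44 in KO cells, and Rela is at 1.16 and 1.17.

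To compare levels between genes, normalized counts were divided by the gene length given in the tables. On this scale, per kb, the order in untreated cells of both genotypes was Nfkb2, Nfkbia, Rela, Nfkbie, Relb, Nfkb1, Bcl3, Nfkbiz, Tnfaip3 and Rel, and no neighbours in this order overlapped. With the length of the longest coding transcript instead (a choice made after seeing the data), Nfkb1 came before Relb and Relb before Nfkbie, with 856, 627 and 392 normalized counts per kb in untreated control cells against 292, 356 and 394 by the lengths of the tables. In untreated control cells the mean was 2378 normalized counts per kb for Nfkb2 and 41.0 for Rel. With IFNγ, Nfkbia was at the top, with 3604 per kb in control cells against 3378 for Nfkb2. In KO cells with IFNγ the levels per kb of Nfkbia (3051) and Nfkb2 (3035) overlapped by gene length. By transcript length they were apart (3081 and 3144 against 2665 and 2526). Bcl3 and Nfkbiz could not be ordered by gene length with IFNγ, in control (454 and 449) or KO cells (343 and 310). By transcript length Bcl3 was above Nfkbiz without overlap. It had 625 and 589 against 564 and 530 in control, and 493 and 424 against 391 and 364 in KO cells. Bcl3 also overlapped Nfkb1 in control cells with IFNγ by gene length (461, but 1350 by transcript length, against 607 for Bcl3).

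Of the summed level of the 5 subunits per kb, Nfkb2 made up 52.8% in untreated control, 53.4% in untreated KO, 55.7% in IFNγ-treated control and 54.4% in IFNγ-treated KO cells. Rela made up 31.9%, 30.6%, 27.4% and 28.5% in the same order, and Rel at most 1.04% in any sample. These shares depend on the length used. The tables give Nfkb1 12061 bases, whereas its longest coding transcript has 4117, and with such transcript lengths the share of Nfkb2 in untreated control cells was 40.7%.

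The summed inhibitors per kb, relative to the summed subunits per kb, were 0.577 and 0.561 in untreated control samples and 0.566 and 0.578 in untreated KO samples. With IFNγ the ratio was 0.944 and 0.961 in control samples and 0.849 and 0.859 in KO samples. The genotypes overlapped untreated and were apart with IFNγ, where the gap was larger than that between samples of a group. The same held for the pair of Nfkbia and Rela, whose ratio per kb was 2.18 and 2.16 in control and 1.89 and 1.95 in KO samples with IFNγ, and 1.32 and 1.23 against 1.31 and 1.29 untreated. With 2 samples against 2, an exact two-sided permutation test cannot give a p below 0.333, and no test was run on these ratios.

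**Figure D4:**
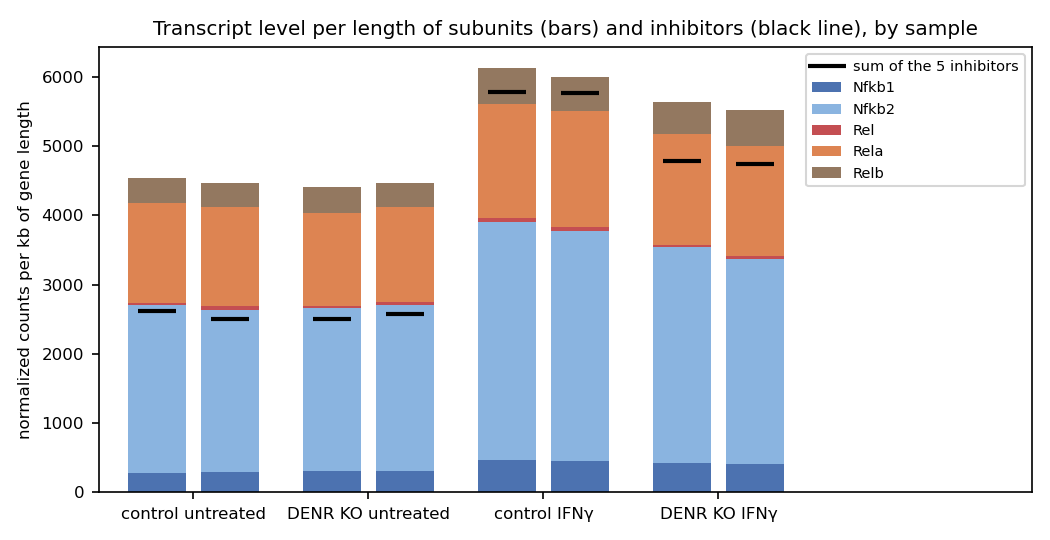
Normalized counts per kb of gene length (y axis, from 0) in each of the 8 samples: stacked bars show the 5 subunits and the black line the sum of the 5 inhibitors. The black line stands at 0.561 to 0.578 of the bar in the 4 untreated samples, at 0.944 and 0.961 in control and at 0.849 and 0.859 in DENR KO samples with IFNγ.

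Other genes of the pathway were taken from lists by role. Of 20 receptors and adaptors tested with IFNγ, 6 fell in KO cells and 0 rose, where 2.25% of all genes fell and 1.80% rose, with a median log2 fold change of -0.06. Irak2, a kinase-like adaptor of interleukin-1 and Toll-like receptors, had 1045 and 1045 normalized counts in control and 733.1 and 619.2 in KO cells (-0.63, adjusted p = 3.84e-05, limma). Myd88, the adaptor that recruits it, had 677.3 and 694.7 in control and 506.8 and 477.6 in KO cells (-0.48, adjusted p = 0.00153). In both, the KO samples were below the controls without overlap, as for 20.8% of all genes. Both genes were named for their adjusted p in these same samples, so this is no separate support. Tnfrsf1a, the main TNF receptor, had 2929 and 2997 in control and 2295 and 2337 in KO cells (-0.36, adjusted p = 5.54e-04), and its effect also differed between the treatments (-0.48, adjusted p = 0.00817, limma). The others that fell were Tlr2, Birc3, whose call was lost without DENR KO IFNγ replicate 1 (-0.27, adjusted p = 0.0897, limma), and Birc2, whose call was lost without any of the 4 samples (-0.29 to -0.25, adjusted p = 0.0777 to 0.202, limma).

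Of 14 genes for the IKK kinases and their upstream kinase and ubiquitin ligase partners, 1 fell with IFNγ (2.25% of all genes), and the median was -0.09. It was Map3k14, the kinase that starts Nfkb2 processing in the noncanonical branch, with 1314 and 1290 normalized counts in control and 1096 and 1005 in KO cells (-0.31, adjusted p = 0.0130, limma), and its call was lost without DENR KO IFNγ replicate 2 (-0.25, adjusted p = 0.169). Of 15 other inhibitors of the pathway 2 fell, against the same 2.25% of all genes, with a median of -0.07. Tnip1, a partner of the Tnfaip3 product, had 2941 and 2843 in control and 2132 and 2052 in KO cells (-0.47, adjusted p = 2.21e-05), with a difference between the treatments that passed as well (-0.45, adjusted p = 0.0346, limma). Nfkbib, which encodes the remaining classical IκB protein, IκBβ, had 1074 and 1017 in control and 888.6 and 805.8 in KO cells (-0.30, adjusted p = 0.0272, limma). It missed the threshold without control IFNγ replicate 1 (-0.26, adjusted p = 0.121) and without DENR KO IFNγ replicate 2 (-0.23, adjusted p = 0.257, limma). Most genes of these lists did not pass.

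Of 25 genes known as NF-κB targets that passed the filter, 8 fell in KO cells with IFNγ and 1, the matrix metalloproteinase gene Mmp9, rose (0.52, adjusted p = 0.00114), with a median of -0.29, where 2.25% of all genes fell and 1.80% rose. Nos2, which encodes inducible nitric oxide synthase, had 6737 and 6656 normalized counts in control and 3934 and 3902 in KO cells (-0.77, adjusted p = 1.37e-09). Cxcl1, a neutrophil-attracting chemokine gene, had 6402 and 6876 in control and 3674 and 4044 in KO cells (-0.78, adjusted p = 5.60e-09). Ccl2, a monocyte-attracting chemokine gene, had 15089 and 15834 in control and 9915 and 10473 in KO cells (-0.60, adjusted p = 2.25e-08, limma). For these 3 both KO samples were below both controls, as for 20.8% of all genes, and by more than the gap within either group. The 3 were named for their adjusted p in these same samples, so this is no separate support. They, Sod2 and Ccl7 also passed the test of the difference between treatments, as 0.429% of all genes did in that direction. Fas, Vcam1 and Cxcl5 were the other targets that fell, the last of which missed the threshold without control IFNγ replicate 2 (-1.09, adjusted p = 0.0690, limma). Many of these genes are also known to respond to IFNγ by other routes, so their levels do not measure NF-κB activity alone. Untreated, Mmp9 was the single gene of these 4 lists that passed, again higher in KO cells (0.56, adjusted p = 0.00308, limma).

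**Figure D5:**
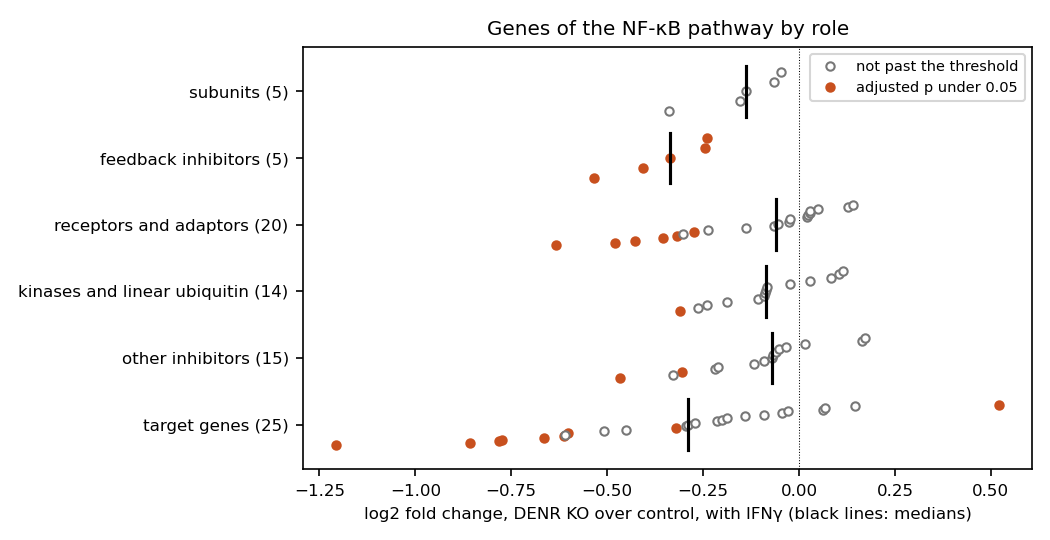
Log2 fold change between genotypes, KO over control, with IFNγ (x axis) for each tested gene of the 6 lists (number tested in brackets), with the median of each list as a black line; filled points have an adjusted p under 0.05 (limma). All 5 feedback inhibitors are filled and none of the subunits, and the targets run from Cxcl5 (-1.21) to Mmp9 (0.52).

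The profiles of the 10 genes over the 8 samples were alike. On the log2 scale, each correlated with the mean of the 10, itself included, with a Pearson r of 0.79 (Rel) to 0.998 (Nfkbiz). This is a description over 8 samples that share the step between untreated and IFNγ. Among 10189 other genes whose mean reached 100 in each table, those most like the mean profile were Ttc39b (r = 0.999), Wars, Cxcl1, C1ra and Irf2 (r = 0.998 or above). Ttc39b, for example, had means of 1096 and 1069 normalized counts in untreated control and KO cells and of 3483 and 2586 with IFNγ. As for the inhibitors, the genotypes were close untreated and apart with IFNγ, a likeness for which Ttc39b was picked.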

How the data were processed

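The authors deposited 2 tables, 1 for each treatment, with a normalized signal per gene and sample (read count divided by a size factor). The submitters' notes name HISAT2 2.0.5, featureCounts 1.5.0-p3, StringTie 1.3.3b, DESeq2 1.20.0 and mm9, but 95.4% of 23583 genes have GRCm38 coordinates. Strand handling is not given in the sources used here. In each sample 100% of the signal values were whole multiples of the smallest (within 0.01 reads), which gave the reads. The authors' group means, fold changes and p-values were not used.

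Levels were tested with limma 3.58.1 (R 4.3.3; trend, robust) on log2(value + 1), which understates changes of low genes, where the mean over the samples fitted reached 10, with Benjamini-Hochberg adjustment over all such genes and a threshold of 0.05. The interaction was fitted over all 8 samples. Alternatives were edgeR 4.0.16 and DESeq2 1.42.0 on the reads, pseudocount 5, no filter, median centring, a fit of both tables, a replicate block and single samples left out. Fits were tested on simulated data. Deviations of same-numbered samples correlated between genotypes with r = 0.22 (IFNγ) and 0.047 (untreated), which does not establish pairs.

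The members and lists were chosen with earlier results of these data known. Named were the 10 members, Denr, up to 3 genes of each other pathway list with the smallest adjusted p among those called with IFNγ, and the 5 genes most like the mean profile. Other called list genes and markers were named after their values were seen.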

Additional observations from a re-analysis of the deposited data

Results flagged for a closer look

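The effect of DENR KO on Nfkbiz differed between the treatments. KO over control was -0.54 on the log2 scale with IFNγ and 0.07 untreated, a difference of -0.61 (SE 0.106, adjusted p = 0.00428, limma interaction test over 8 samples). It ranked 29 of 13998 genes by p, and edgeR (adjusted p = 0.00382) and DESeq2 (adjusted p = 0.00234) on recovered reads gave -0.60 and -0.61. Without DENR KO untreated replicate 2, whose 666.2 normalized counts are the highest of the 4 untreated samples, it was -0.53 with an adjusted p of 0.0641. For none of the other 9 genes did the difference pass the test.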

How the results depend on the processing

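Another pseudocount, no filter, median centring, edgeR and DESeq2 left each of the 10 genes on its side of the threshold in each comparison. The fit of both tables, run for the effects with IFNγ and untreated, did so except for Nfkbie with IFNγ. With the numbers in the labels as a replicate block, which the correlations do not establish as pairs, 8 genes were lower with IFNγ instead of 5 (Nfkb1, Nfkb2 and Rel in addition), and 3 differed between treatments instead of 1 (Nfkbie and Tnfaip3 in addition). The block also raised the calls among all genes, from 314 lower and 251 higher to 729 and 726 with IFNγ, from 21 and 60 to 89 and 168 untreated, and from 60 and 3 to 120 and 30 for the difference. DESeq2 called 223 and 122 of all genes with IFNγ and 13 and 37 untreated, and median centring 29 and 44 untreated.

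With single samples left out, which also leaves fewer samples in the fit, 2 to 4 of the 10 genes passed with IFNγ and 0 to 2 for the difference between treatments. Signs turned for small values that passed nowhere: Relb with IFNγ ranged from -0.13 to 0.035, and, untreated, Relb ranged from -0.034 to 0.079 (-0.0049 with median centring), Nfkb2 from -0.025 to 0.018, Bcl3 from -0.053 to 0.036 and Nfkbiz from -2.7e-04 to 0.14. The difference between treatments ranged from -0.15 to 0.012 for Relb and from -0.32 to 0.052 for Rel. The median IFNγ to untreated ratio of the 10 genes in control cells was 1.77, and 1.87 with size factors set over all 8 samples. The share of Nfkb2 was 40.7% with transcript lengths. Calls among all genes came to 15 lower and 20 higher untreated without control replicate 2, and to 281 and 146 with IFNγ without DENR KO replicate 1. The intervals given rest on 2 samples a group and on a spread estimated partly from the other genes tested. The cause of the lost calls was not tested beyond this.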
